A study of Mus musculus with 4 samples.

Results

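The lymphatic endothelial cells described here were the cells of 2 mouse Achilles tendon libraries that carried the transcript of Clca3a1, a member of the chloride channel accessory family. A cell was taken where it had at least 1 unique molecular identifier (UMI) of Prox1, at least 2 UMIs of Pecam1 and Cdh5 together, none of Pax7 or Ptprc, fewer than 2 of Mki67 and Top2a together, and at least 2 of Clca3a1. These Clca3a1 cells numbered 1073 in the day 21 library and 603 in the day 7 library, or 1676 of the 19021 cells of the whole series. They were set beside the cells that passed the same gates with Clca3a1 at 0, called Clca3a1-zero cells, which numbered 459 at day 21 and 125 at day 7. Both groups were chosen by these UMI counts, and Clca3a1 is what divides them, so the differences between them are a description and carry no test.

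The study profiled single cells of mouse Achilles tendon in 4 libraries, 1 for each group, each pooled from 5 tendons. The groups were Prox1 eGFP mice at day 7 and at day 21 after the injury treatment that the labels call B/T, Vegfc CRE mice at day 7 after B/T, and Prox1 eGFP mice at day 0 with no treatment. The labels do not expand B/T, give no age or sex, and do not say how the CRE recombinase was used. One label says that cells were sorted on a flow cytometer for Prox1 expression after digestion with collagenase and dispase, and another calls the same cells unsorted. Shares of cells below may therefore depend on a sort. There was 1 library per group and so no measure of how animals differ, and the intervals in parentheses are 95% intervals for counting error only.

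Lymphatic endothelium is specified by the transcription factor Prox1. Lymphatic capillaries, which take up fluid and immune cells, are known for the hyaluronan receptor Lyve1 and the chemokine Ccl21a. They drain into collecting vessels, which have tighter junctions, intraluminal valves and a muscle coat, and in which Lyve1 is low. The working name of these cells, collecting-type, was checked against those genes below.

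Only the injured Prox1 eGFP libraries held enough of these cells to describe. At day 0, 1 of 690 cells passed the gates and its Clca3a1 count was 0. In the Vegfc CRE library 25 of 7071 cells passed, and 6 of them had at least 2 Clca3a1 UMIs. At day 21 the Clca3a1 cells were 61.2% of the 1752 gated cells (58.9 to 63.5, exact Clopper-Pearson), and at day 7 they were 76.0% of 793 (72.9 to 79.0). The libraries held 59894792 UMIs at day 21 and 59312181 at day 7. Clca3a1 cells were also deeper than Clca3a1-zero cells, with a median of 9615 against 7697 UMIs per cell at day 21 and of 18098 against 10828 at day 7, so a cell read more deeply was more likely to reach 2 Clca3a1 UMIs. Both groups were deeper at day 7 than at day 21. The shares of the days are therefore not at the same depth, and no change between days is read from them. Cell numbers at a fixed depth are given below. No barcode was shared between the Clca3a1 cells of day 7 and those of day 21, although 10 barcodes were shared between all cells of these libraries. Whether those 10 included a Clca3a1 cell of either day was not examined.

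The promoters of Clca3a1, which gated the cells, and of Cmah and Lrg1, the other named markers that were at least 2-fold higher in them, are shown to let their sequence be compared. Each runs from 250 bases before to 50 after the gene's start in the RefSeq table for GRCm38.p6 and is written from 5′ to 3′ on the gene's strand. Capitals mark matches to the ETS motif CAGGAAG, searched on both strands. The forkhead motif TGTTTAC, which 3.65% of 32851 promoters of this length hold, was searched in the same way. So was AGATAA, 1 of the forms of the sites of GATA factors, which 11.2% hold. Other forms, such as TGATAA, were not searched, so the search does not show that a window lacks GATA sites. Clca3a1 is read from chr3:144760928-144761227 (minus strand), Cmah from chr13:24327154-24327453 (plus strand) and Lrg1 from chr17:56121897-56122196 (minus strand).
Clca3a1 promoter: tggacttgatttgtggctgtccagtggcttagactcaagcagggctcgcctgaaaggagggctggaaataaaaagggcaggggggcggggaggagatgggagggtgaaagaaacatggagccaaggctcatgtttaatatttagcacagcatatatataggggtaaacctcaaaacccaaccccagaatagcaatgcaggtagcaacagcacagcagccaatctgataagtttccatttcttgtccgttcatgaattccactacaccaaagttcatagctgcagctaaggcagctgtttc
Cmah promoter: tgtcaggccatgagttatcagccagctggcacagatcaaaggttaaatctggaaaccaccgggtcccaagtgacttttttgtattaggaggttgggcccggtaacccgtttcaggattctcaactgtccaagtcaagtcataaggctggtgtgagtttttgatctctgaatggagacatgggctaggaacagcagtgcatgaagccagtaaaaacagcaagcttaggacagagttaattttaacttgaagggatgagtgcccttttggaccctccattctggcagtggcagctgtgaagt
Lrg1 promoter: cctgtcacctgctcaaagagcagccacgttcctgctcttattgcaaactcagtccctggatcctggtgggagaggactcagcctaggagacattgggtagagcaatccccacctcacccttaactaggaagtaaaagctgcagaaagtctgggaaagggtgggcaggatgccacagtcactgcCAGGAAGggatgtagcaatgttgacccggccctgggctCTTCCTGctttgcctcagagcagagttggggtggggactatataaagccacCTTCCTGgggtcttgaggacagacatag
The ETS motif was found 3 times in the Lrg1 promoter, at -67, -29 and 23 bases from the start, and 13.3% of all promoters held it at least 1 time. None of the 3 motifs was found in the Clca3a1 or the Cmah window, and no matches overlapped. A match here is a stretch of letters and was not tested as a binding site.

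The gating genes had these levels, given as CPM, the gene's UMIs summed over the cells of a group, per 1000000 UMIs of that group. Prox1 stood at 1642 CPM in Clca3a1 cells and 1479 CPM in Clca3a1-zero cells at day 21, and at 2170 CPM against 1786 CPM at day 7. Clca3a1 itself had a median of 5 UMIs per Clca3a1 cell at day 21, with a highest count of 36, and a median of 9 at day 7, with a highest count of 54. Among muscle progenitor barcodes, taken as those with Pax7 and without Pecam1 or Cdh5, 0.702% at day 21 and 1.01% at day 7 had a Clca3a1 UMI, at median depths of 6854 and 7834 UMIs, and this serves as the background level. Prox1 was not confined to the lymphatic cells, and the same muscle progenitor barcodes held it at 767 CPM at day 21 and 1233 CPM at day 7.

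Of the 4 named markers that the gates did not use, Cmah and Lrg1 were at least 2-fold higher in Clca3a1 cells on both days, and Cldn5 and Nts were not. Cmah encodes the hydroxylase that makes the sialic acid Neu5Gc from Neu5Ac. It reached 173 CPM (165 to 181) in Clca3a1 cells and 27.8 CPM (22.9 to 33.5) in Clca3a1-zero cells at day 21, a ratio of 6.21 (5.13 to 7.59). At day 7 it reached 275 CPM (265 to 285) in Clca3a1 cells and 34.5 CPM (26.4 to 44.2) in Clca3a1-zero cells, a ratio of 7.98 (6.21 to 10.4). Of the Cmah UMIs of Clca3a1-zero cells, 5 cells held 32.1% at day 21 and 79.0% at day 7, so the level there rests on few cells at day 7. A Cmah UMI was present in 35.0% of Clca3a1 cells and 11.6% of Clca3a1-zero cells at day 21, and in 60.9% and 13.6% at day 7, while 0.351% and 0.297% of muscle progenitor barcodes had one. After each cell was thinned to 2000 UMIs these shares were 18.6% and 3.95% at day 21, and 27.0% and 5.6% at day 7. The cells were still grouped on unthinned Clca3a1 counts.

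Lrg1 encodes a secreted leucine-rich glycoprotein of the acute phase that modulates TGF-beta signalling in endothelium. Its level was 1000 CPM in Clca3a1 cells and 423 CPM in Clca3a1-zero cells at day 21, a ratio of 2.37 (2.25 to 2.49). At day 7 it was 1232 CPM against 386 CPM, a ratio of 3.19 (2.96 to 3.45). Lrg1 was found in nearly every Clca3a1 cell, 92.1% at day 21 and 97.8% at day 7, and in 69.7% and 70.4% of the Clca3a1-zero cells. Cldn5, the main claudin of endothelial tight junctions, stood at 1440 against 1157 CPM at day 21 and at 2008 against 1697 CPM at day 7, ratios of 1.25 (1.21 to 1.29) and 1.18 (1.14 to 1.23). Nts, the neuropeptide neurotensin, stood at 1153 against 961 CPM at day 21 and at 1049 against 969 CPM at day 7, ratios of 1.2 (1.16 to 1.24) and 1.08 (1.03 to 1.14). For both genes the ratio was above 1 beyond counting error and below 1.5 on both days. Of the Nts UMIs of Clca3a1-zero cells, however, 5 cells held 23.4% at day 21 and 54.1% at day 7. The intervals do not cover that spread between cells. Cells with 1 Clca3a1 UMI had Nts at 1929 CPM at day 21 and 548 CPM at day 7.

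**Figure D1:**
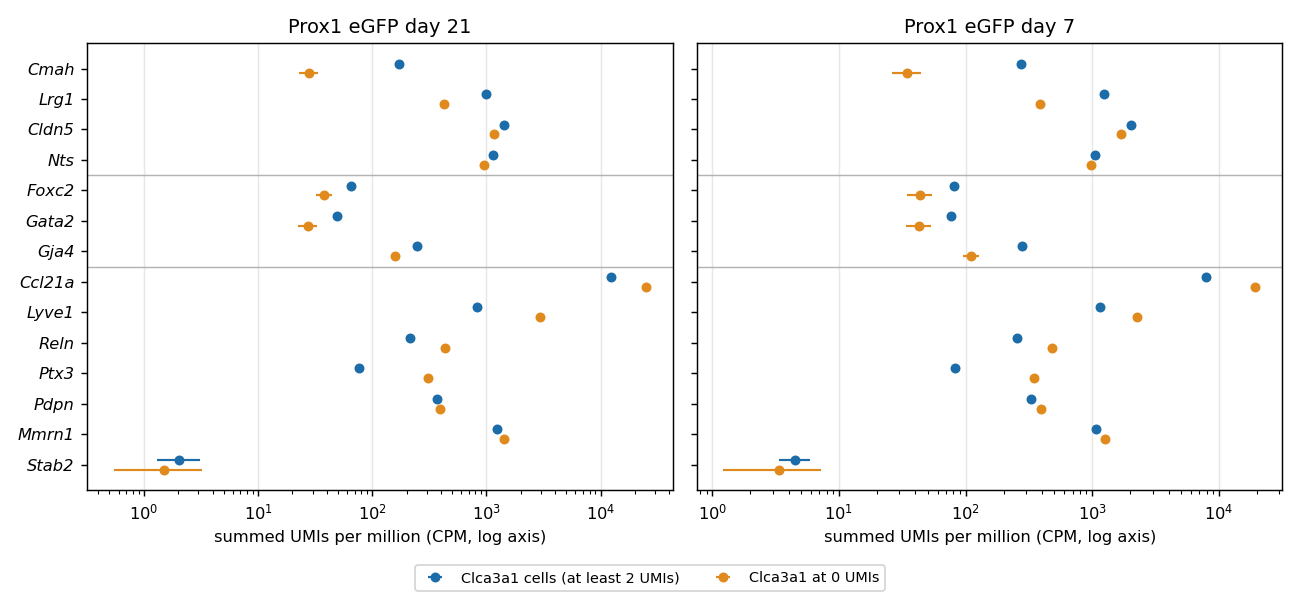
Summed level of 14 marker genes (CPM, log axis) in Clca3a1 cells (blue, upper dot of each row) and Clca3a1-zero cells (orange, lower dot) at day 21 (left) and day 7 (right), with 95% Poisson intervals for counting error. Cmah and Lrg1 lie to the right in Clca3a1 cells, and Ccl21a, Lyve1, Reln and Ptx3 lie to the left; for Cmah the values at day 21 are 173 and 27.8 CPM.

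The capillary genes were lower in Clca3a1 cells but none of the abundant ones was absent. Lyve1 stood at 830 CPM in Clca3a1 cells and 2952 CPM in Clca3a1-zero cells at day 21, which is 3.56-fold lower (3.46 to 3.65). At day 7 it stood at 1154 CPM against 2259 CPM, 1.96-fold lower (1.89 to 2.03). A Lyve1 UMI was present in 52.0% of Clca3a1 cells and 84.5% of Clca3a1-zero cells at day 21, in 72.1% and 84.8% at day 7, and in 1.58% and 1.48% of muscle progenitor barcodes, so the Lyve1 of Clca3a1 cells was well above background. Ccl21a, which draws dendritic cells and T cells to lymphatics, stood at 12317 CPM against 24998 CPM at day 21 and at 7877 CPM against 19350 CPM at day 7, 2.03-fold and 2.46-fold lower. Ccl21a has near-identical copies in the genome, which makes its counts uncertain.

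Ptx3, a secreted pentraxin, was the capillary marker furthest apart, at 77.2 CPM against 306 CPM at day 21 and at 82.9 CPM against 346 CPM at day 7, 3.97-fold (3.63 to 4.33) and 4.18-fold (3.77 to 4.63) lower. Reln, the secreted glycoprotein reelin, was at 215 against 434 CPM and at 254 against 480 CPM, 2.02-fold and 1.89-fold lower. Pdpn, the membrane glycoprotein podoplanin, and Mmrn1, a multimerin, differed little. Pdpn stood at 368 against 389 CPM at day 21 and at 329 against 396 CPM at day 7, and Mmrn1 at 1231 against 1413 CPM and at 1075 against 1250 CPM. Of the 7 capillary markers, 4 of the 6 with at least 50 UMIs were at least 2-fold lower at day 21 and 2 of 7 at day 7, and none was higher. Ccl21a and Reln lay near the cut at day 21, each with a log2 ratio of -1.02. Under other processing settings they came as close as -0.91 and -0.84, and Ccl21a at day 7 as close as -0.58. Among all genes 3.43% were at least 2-fold lower at day 21 and 3.44% at day 7. On these genes the Clca3a1 cells were a Lyve1-low, Ccl21a-low and Cmah-high share of the gated cells, in which Lyve1 was still detected. The name collecting-type thus matched the direction of these markers and not an absence of capillary genes, and the cells are called Clca3a1 cells here.

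Cells within each group varied widely, and the per-cell ranges of the groups overlapped for the label's Cmah, Lrg1, Cldn5 and Nts, whereas Clca3a1 divides the groups by construction. The median Clca3a1 cell had Lyve1 at 75.9 CPM at day 21 and 399 CPM at day 7, while the highest decile of the same cells began at 2970 CPM and 3395 CPM. In Clca3a1-zero cells the median was 2382 CPM at day 21 and 2109 CPM at day 7. The median Clca3a1 cell thus held less Lyve1 than the median Clca3a1-zero cell, and at least 1 in 10 held more than it. Ccl21a showed the same spread, with a median of 5792 CPM in Clca3a1 cells and 23152 CPM in Clca3a1-zero cells at day 21, and of 846 against 23879 CPM at day 7. Lrg1 had a median of 731 against 208 CPM at day 21 and of 994 against 161 CPM at day 7. Cmah was 0 in the median Clca3a1 cell at day 21 and 80.3 CPM at day 7, and its highest decile began at 533 CPM and 847 CPM.

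**Figure D2:**
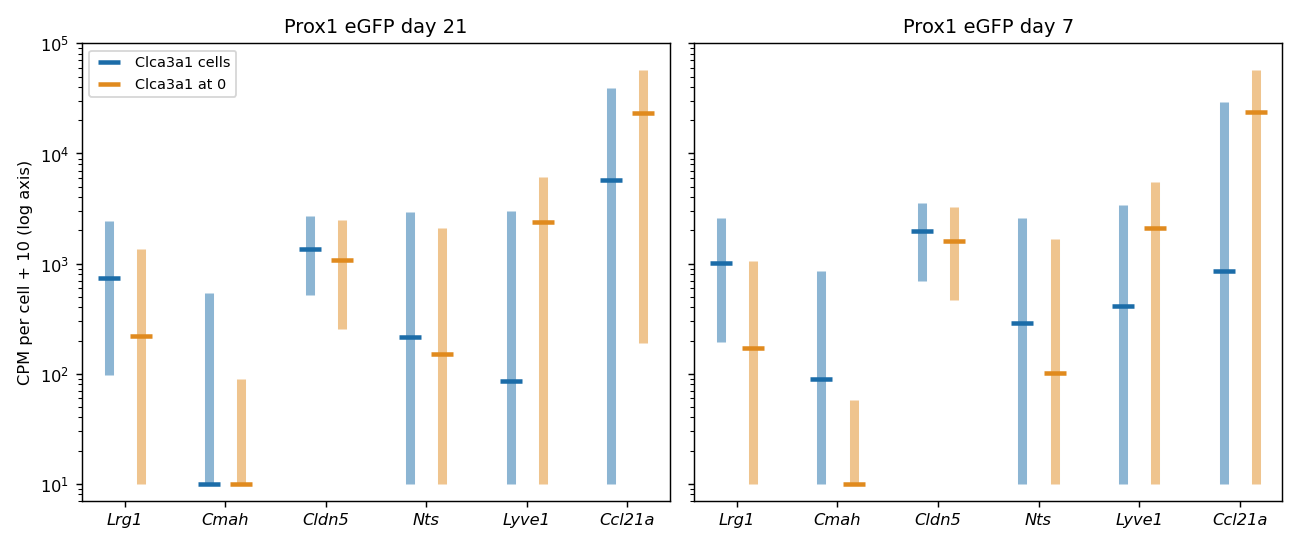
Spread of the per-cell level of 6 genes (CPM per cell plus 10, log axis) in Clca3a1 cells (blue, left bar of each pair) and Clca3a1-zero cells (orange, right bar) at day 21 (left) and day 7 (right). Bars run from the 10th to the 90th percentile of cells and the dark line is the median; for Lyve1 the medians at day 21 are 75.9 and 2382 CPM before the 10 is added, and the bars of the groups overlap for all 6 genes.

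The threshold of 2 UMIs fell inside a graded change of Lyve1, while Cmah on unthinned counts was about level at 0 and 1 UMI and higher at 2. At day 21 the 170 cells with exactly 2 Clca3a1 UMIs, just inside it, had Cmah at 83.5 CPM, and the 220 cells with 1 UMI, just outside, had it at 31.4 CPM. At day 7 these were 65 cells at 109.5 CPM and 65 cells at 35.7 CPM. Lyve1 was 1584 CPM just inside and 2064 CPM just outside at day 21, and 1728 and 1943 CPM at day 7. Cells with 1 Clca3a1 UMI thus resembled the Clca3a1-zero cells in Cmah, at 27.8 and 34.5 CPM, and lay between the groups in Lyve1.

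Over bins of 0, 1, 2, 3 to 5, 6 to 9 and 10 or more Clca3a1 UMIs, Lyve1 at day 21 ran through 2952, 2064, 1584, 1105, 623 and 325 CPM. At day 7 it ran through 2259, 1943, 1728, 1560, 1141 and 931 CPM. Lyve1 was therefore lower in each higher bin on both days, yet was still well above the muscle progenitor background in the highest one. Cmah ran through 27.8, 31.4, 83.5, 108, 172 and 299 CPM at day 21, and through 34.5, 35.7, 109.5, 117, 178 and 393 CPM at day 7. Lrg1 ended at 1211 CPM at day 21 and 1411 CPM at day 7 in the highest bin, and Cldn5 at 1462 and 2072 CPM. Depth moved with the bins, since the median UMI count was 7697 in the lowest and 11972 in the highest bin at day 21, and 10828 and 20088 at day 7. With every cell thinned to 5000 UMIs and bins formed again on the thinned counts, Lyve1 was 2609 CPM at 0 and 257 CPM at 6 or more Clca3a1 UMIs at day 21, and 2185 and 717 CPM at day 7. Cmah on the same footing was 23.8 and 298 CPM at day 21 and 77.1 and 506 CPM at day 7, so the lowest and highest bins stood in the same order at 1 fixed depth. Between those bins the order of Cmah was not kept at day 21, with 123 CPM at 1 UMI and 83.9 CPM at 2. The bins at this depth were 0, 1, 2, 3 to 5 and 6 or more Clca3a1 UMIs. They held 496, 291, 205, 404 and 166 cells at day 21, and 223, 128, 130, 215 and 70 at day 7. The share of cells with at least 2 Clca3a1 UMIs thus differed less between the days than on unthinned counts.

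**Figure D3:**
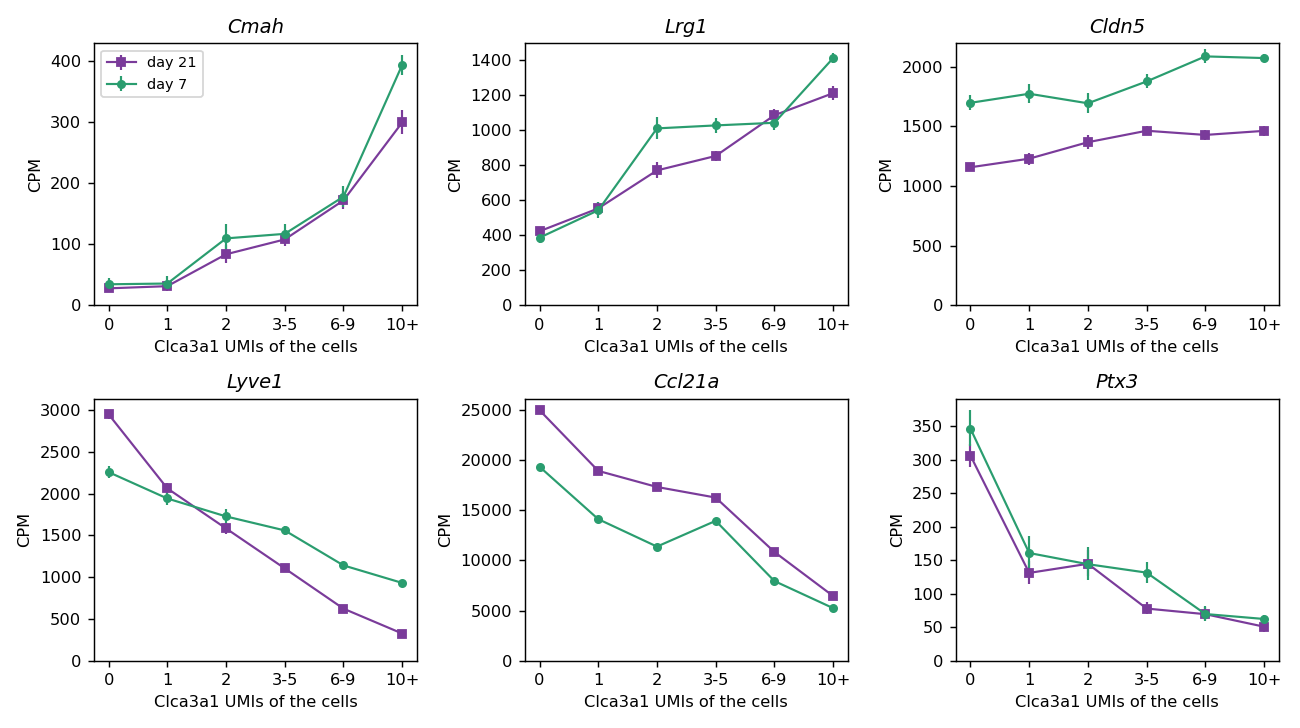
Summed level of 6 genes (CPM) against the Clca3a1 UMI count of the cells in 6 bins, at both days, with 95% Poisson intervals for counting error. Cmah and Lrg1 are higher and Lyve1, Ccl21a and Ptx3 lower in the highest bin than in the lowest; Lyve1 at day 21 is 2952 CPM at 0 and 325 CPM at 10 or more UMIs.

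Across single Clca3a1 cells thinned to 5000 UMIs, 1011 at day 21 and 594 at day 7, the same genes varied most. Among 679 genes with a mean of at least 1 UMI, the median ratio of variance to mean was 1.34 at day 21 and 1.39 at day 7. Ccl21a had a ratio of 111 on both days, Nts of 31.3 and 18.5, Lyve1 of 15.1 and 11.8, and Tm4sf1, a membrane tetraspan protein of endothelium, of 9.55 and 8.25. Malat1, Igfbp5, Apoe, Fos, Fth1 and Vim completed the 10 most variable genes. Spearman's rho of Lyve1 with Ccl21a was 0.50 at day 21 and 0.50 at day 7, and of Cmah with Lrg1 0.38 and 0.39. Ccl21a against Tm4sf1 gave -0.38 and -0.41. These coefficients describe cells that share a library, carry no test, and rest on sparse counts. Nts, a marker of the label, did not follow Clca3a1, with a rho of -0.09 at day 21 and 0.08 at day 7, which in counts this sparse is no finding in either direction.

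Across all genes, 167 of 9964 with at least 50 UMIs in each library were at least 2-fold higher in Clca3a1 cells on both days, which is 1.68% of them, and 174, or 1.75%, were at least 2-fold lower. On single days these shares were 2.86% higher and 3.43% lower at day 21, and 4.19% higher and 3.44% lower at day 7. The gates used this contrast, so nothing is read from these shares. For 145 of the 167 higher genes, the 5 cells of most UMIs held under 25% of the UMIs of Clca3a1 cells on both days. The lower genes were checked in Clca3a1-zero cells, and 21 of 174 passed. Those cells were fewer, 125 against 603 at day 7, so 5 cells hold a larger share there. For Fth1, found in every cell, 5 cells held 15.15% of the day 7 UMIs of Clca3a1-zero cells and 3.13% of those of Clca3a1 cells. These counts therefore cannot be compared. Among the 10 lower genes named by size were the muscle genes Car3, Myl1, Mylpf, Pvalb and Tnni2, for which 5 Clca3a1-zero cells held 84.3% to 100% of the group's UMIs. Those values describe a few barcodes. AA467197, which the naming rule passed over for its clone-type symbol and which is named here after its values were seen, had log2 ratios of -4.17 at day 21 and -4.18 at day 7.

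**Figure D4:**
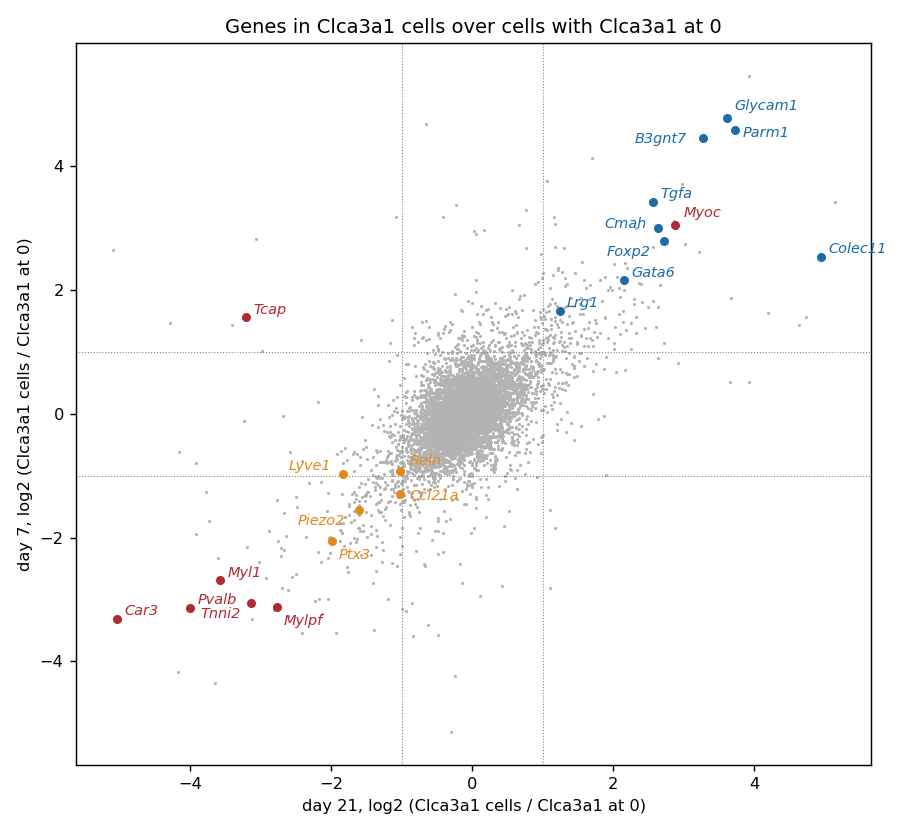
Log2 ratio of Clca3a1 cells over Clca3a1-zero cells at day 21 (x axis) and day 7 (y axis), 1 point per gene with at least 50 UMIs in each library. Dotted lines mark 2-fold; named higher genes are blue, named lower genes orange, and genes whose UMIs sit in a few cells of either group are red. Foxp2, Cmah and Parm1 lie in the upper right, Ptx3 and Piezo2 in the lower left, and Tcap has opposite signs.

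The genes furthest up included the transcription factor Foxp2, which was at 173 CPM in Clca3a1 cells and 26.3 CPM in Clca3a1-zero cells at day 21, a ratio of 6.58 (5.41 to 8.08). At day 7 it was at 242 CPM against 35.0 CPM, a ratio of 6.92 (5.39 to 9.03). A Foxp2 UMI was present in 69.3% against 15.7% of the cells at day 21 and in 86.2% against 28.0% at day 7. Muscle progenitor barcodes also held Foxp2, at 32.4 and 58.7 CPM, which is at or above the level of Clca3a1-zero cells. Gata6, another transcription factor, was at 34.5 against 7.70 CPM at day 21 and at 44.6 against 10.0 CPM at day 7, ratios of 4.48 and 4.46. Of the 21 listed endothelial transcription factors with at least 50 UMIs, Foxp2 was the only one at least 2-fold apart on both days, and the list's median log2 ratio was 0.2 at day 21 and 0.36 at day 7.

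Several higher genes encode secreted or surface proteins. Parm1, a mucin-like membrane protein, was at 56.0 CPM in Clca3a1 cells and 4.22 CPM in Clca3a1-zero cells at day 21, and at 53.7 against 2.22 CPM at day 7, ratios of 13.2 (8.21 to 22.9) and 24.1 (9.38 to 88.9). Tgfa, a ligand of the EGF receptor, was at 44.0 against 7.45 CPM and at 66.0 against 6.11 CPM, ratios of 5.90 and 10.8. Serpine2, an inhibitor of thrombin and plasminogen activators, was at 820 against 180 CPM and at 579 against 113 CPM, ratios of 4.55 and 5.13. Serpine2 was broad, with a UMI in 93.3% of Clca3a1 cells at day 21 and 94.7% at day 7, against 49.2% and 50.4% of the Clca3a1-zero cells. Klrb1f, a lectin-like receptor of the natural killer receptor family, was at 92.1 against 12.7 CPM and at 77.3 against 8.89 CPM, ratios of 7.27 and 8.69. Tm4sf1 was abundant, at 2806 against 971 CPM and at 2584 against 753 CPM, ratios of 2.89 and 3.43, and its median over cells was 2465 against 600.1 CPM at day 21 and 2202 against 517 CPM at day 7.

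Genes at lower levels had wider intervals. Kng2, a kininogen, was at 15.2 against 0.994 CPM at day 21 and at 24.6 against 0.556 CPM at day 7. B3gnt7, a glycosyltransferase, was at 9.64 against 0.994 CPM and at 12.2 against 0.556 CPM, and Colec11, a collectin, at 7.67 against 0.248 CPM and at 6.46 against 1.11 CPM. In the Clca3a1-zero cells these levels rest on 1 to 4 UMIs, so the size of their ratios is loose. Glycam1, a mucin-like ligand of L-selectin, and Ahsg, fetuin-A, were higher in sum, yet 5 cells held 42.4% and 44.8% of the Glycam1 UMIs and 41.7% and 31.1% of the Ahsg UMIs of Clca3a1 cells. Myoc, Cxcl2 and Itih2 also met the naming rule, and of the Myoc UMIs 5 cells held 95.1% at day 21 and 100% at day 7. Among the genes carried by many cells were also Plscr1, a phospholipid scramblase, at 13.3 against 2.24 CPM and at 21.4 against 3.34 CPM, and Serpina3g, at 7.50 against 1.49 CPM and at 40.3 against 5.0 CPM. Gxylt2, a xylosyltransferase, was at 42.5 against 9.44 CPM and at 63.2 against 11.7 CPM, below its 146 and 252 CPM in muscle progenitor barcodes.

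Among lower genes carried by many cells, Piezo2, a mechanosensitive channel, was at 43.2 CPM in Clca3a1 cells and 132 CPM in Clca3a1-zero cells at day 21, and at 42.9 against 127 CPM at day 7, 3.05-fold and 2.95-fold lower. Scn3a, a voltage-gated sodium channel, was at 84.7 against 284 CPM and at 91.5 against 252 CPM, 3.36-fold and 2.75-fold lower. Pcsk6, a proprotein convertase, was at 91.1 against 229 CPM and at 86.1 against 251 CPM, 2.51-fold and 2.92-fold lower. Syne1, a linker of the nucleus to the cytoskeleton, was at 49.4 against 180 CPM and at 47.5 against 177 CPM, 3.64-fold and 3.74-fold lower. Gmfg, Lbh, St8sia6, Slco2b1, Ablim3 and Gsap were at least 2-fold lower on both days too. Of the genes named by size alone that are not muscle genes, Cd276, an immune checkpoint protein, was at 2.94 against 25.6 CPM and at 2.41 against 23.9 CPM, and Serinc2 at 10.98 against 70.8 CPM and at 7.15 against 50.02 CPM. Khdrbs3, Nav3 and Cyp4b1, a cytochrome P450, were 6.31-fold lower or more on both days.

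Lymphatic valve genes leaned higher in Clca3a1 cells, mostly by less than 2-fold. Of 10 listed, 9 had at least 50 UMIs. Their median log2 ratio was 0.48 at day 21 and 0.76 at day 7, where the median of all genes was -0.08 and 0.01. Efnb2, the ephrin ligand needed for valve formation in mice, was the only one at least 2-fold higher on both days, at 248 against 97.1 CPM (ratio 2.55, 2.30 to 2.84) and at 305 against 91.2 CPM (3.35, 2.86 to 3.94). Gja4, a connexin, was at 246 against 158 CPM at day 21 and at 278 against 111 CPM at day 7, ratios of 1.56 and 2.51. The valve transcription factors Foxc2 and Gata2 had ratios of 1.72 and 1.79 at day 21 and of 1.86 and 1.80 at day 7. Cldn11 and Itga9, markers of the valve leaflets, went the other way, with Cldn11 at 41.8 against 69.1 CPM and at 30.8 against 49.5 CPM, and Itga9 at 70.0 against 99.1 CPM and at 87.0 against 135 CPM. The Foxc2 locus overlaps a gene that only 1 gene list holds.

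No VEGF ligand or receptor was at least 2-fold higher in Clca3a1 cells on either day, and 3 of 8 were at least 2-fold lower, with a median log2 ratio of -0.63 at day 21 and -0.39 at day 7. Among all genes 3.43% were at least 2-fold lower at day 21 and 3.44% at day 7. Flt4, the receptor of Vegfc, was at 307 against 434 CPM at day 21 and at 429 against 529 CPM at day 7, 1.41-fold and 1.23-fold lower. Its co-receptor Nrp2 was at 278 against 470.0 CPM and at 394 against 548 CPM, 1.69-fold and 1.39-fold lower. Kdr, the receptor of Vegfa, stood at 366 against 368 CPM and at 411 against 416 CPM, so the groups were within counting error. Pgf, placental growth factor, was 5.37-fold lower at day 21, at 7.41 against 39.8 CPM, and 11.7-fold lower at day 7, at 9.30 against 108 CPM, and Flt1 was at 6.34 against 16.4 CPM and at 14.9 against 40.6 CPM. Vegfc itself was under the minimum, at 0.982 against 2.48 CPM and at 1.90 against 8.89 CPM. The pan-lymphatic list had a median of -0.63 at day 21, with 3 of 8 genes at least 2-fold lower, and of -0.30 at day 7, with 1 of 9 lower.

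Genes of TGF-beta and BMP signalling included 3 of 19 at least 2-fold higher at day 21 and 5 of 18 at day 7, with 1 lower at day 21. Among all genes 2.86% were higher by this measure at day 21 and 4.19% at day 7, and 3.43% and 3.44% lower. Bmp4, a BMP ligand, was at 111 against 25.1 CPM at day 21 and at 107 against 38.4 CPM at day 7, ratios of 4.42 and 2.79, and muscle progenitor barcodes held more of it, at 146 and 253 CPM. Fst, the activin antagonist follistatin, was at 56.4 against 16.9 CPM and at 68.7 against 23.9 CPM, ratios of 3.34 and 2.87. Id3 and Smad7, which BMP and TGF-beta signals induce, were 2.30-fold and 3.08-fold higher at day 7 and had ratios of 1.23 and 1.11 at day 21. The Smad7 level of Clca3a1-zero cells at day 7 rests on 21 UMIs, 76.2% of them in 5 cells.

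Genes of flow sensing and vessel tone had a median log2 ratio of 0.67 at day 21 and 0.28 at day 7. Ednrb, an endothelin receptor, was at 102 against 41.0 CPM and at 216 against 65.0 CPM, ratios of 2.49 and 3.32. Nos3, the endothelial nitric oxide synthase, was at 60.6 against 34.3 CPM and at 82.9 against 38.4 CPM, ratios of 1.77 and 2.16. Thbd, thrombomodulin, had ratios of 2.90 and 1.98, and the flow-responsive factor Klf2 of 1.66 and 1.17. Gucy1a1, a subunit of the nitric oxide receptor, was lower, at 20.6 against 62.9 CPM and at 29.2 against 106 CPM, 3.05-fold and 3.62-fold.

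Junction genes had medians of 0.40 at day 21 and 0.28 at day 7. Jam3, a junctional adhesion molecule, was at least 2-fold higher on both days, at 23.1 against 10.7 CPM and at 30.4 against 8.89 CPM. Its relative Jam2 was at least 2-fold lower, at 2.32 against 13.2 CPM and at 7.41 against 18.9 CPM, with 62.3% and 97.1% of its Clca3a1-zero UMIs in 5 cells. Emcn, the sialomucin endomucin, was at 330 against 122 CPM at day 21 and at 331 against 198 CPM at day 7, ratios of 2.71 and 1.67. Plvap, a diaphragm protein of endothelial pores, was at 782 against 455 CPM and at 1328 against 521 CPM, ratios of 1.72 and 2.55. Basement membrane genes had medians of -0.54 and -0.18, with Col15a1 the 1 gene of 15 at least 2-fold lower on both days. Of the 14 genes listed for glycans and sialic acid, 10 had at least 50 UMIs. Among these Cmah was the only one at least 2-fold higher at day 21, and St3gal1, a sialyltransferase, joined it at day 7, at 52.8 against 25.6 CPM. B3gnt7 and Gxylt2, which make glycans and are outside this list, were at least 2-fold higher on both days.

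Complement and acute phase genes had medians of 0.54 at day 21 and 1.04 at day 7, with 4 of 11 at least 2-fold higher and 1 lower at day 21, and 5 of 10 higher and 2 lower at day 7, where 2.86% and 4.19% of all genes were higher and 3.43% and 3.44% lower. Lrg1 is one of the higher genes. The lower ones were C1s1 on both days and C1ra at day 7, both complement components, and 5 cells held 84.7% or more of their Clca3a1-zero UMIs. Lcn2, a siderophore-binding lipocalin, was at 586 against 154 CPM and at 369 against 158 CPM, ratios of 3.81 and 2.34, and Cfb, complement factor B, had ratios of 2.59 and 2.99. Of the leukocyte traffic genes 6 of 19 were at least 2-fold higher and 2 lower at day 21, and 5 of 21 higher and 3 lower at day 7. The higher ones were Ackr4, Glycam1, Sele and Selp on both days, Ccl7 and Icam1 at day 21 and Ackr1 at day 7. The lower ones were Ackr2 and Ccl21a on both days and Cxcl12 at day 7. Ackr2, a scavenging receptor for inflammatory chemokines, was lower, at 35.2 against 85.7 CPM and at 31.4 against 93.9 CPM. Spns2, the transporter that exports sphingosine 1-phosphate, was at 184 against 93.4 CPM and at 258 against 133 CPM, ratios of 1.97 and 1.94.

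**Figure D5:**
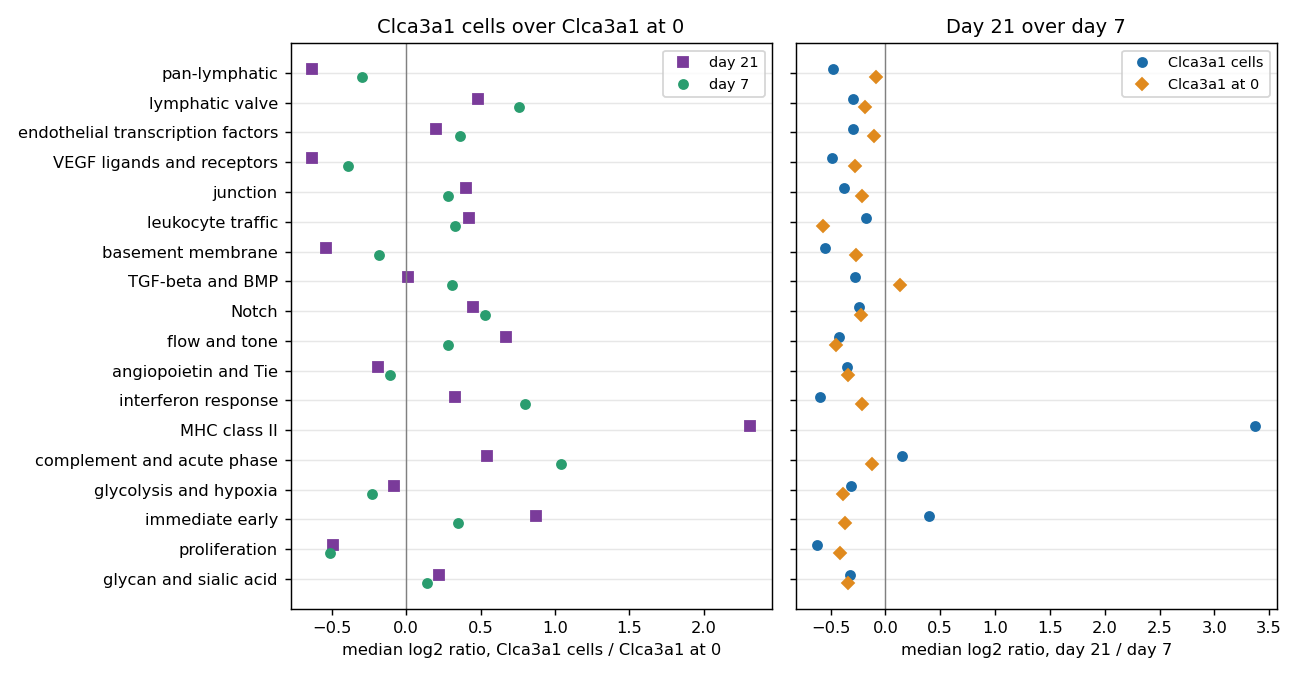
Median log2 ratio of 18 gene lists. Left, Clca3a1 cells over Clca3a1-zero cells at day 21 (squares) and day 7 (circles); right, day 21 over day 7 in Clca3a1 cells (circles) and in Clca3a1-zero cells (diamonds). Lymphatic valve genes lie at 0.48 and 0.76 on the left, VEGF genes at -0.63 and -0.39, and MHC class II at day 21 at 2.31, a value that rests on a few cells.

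Immediate early genes, which the digestion of tissue is known to induce, had a median of 0.87 at day 21, with 7 of 15 at least 2-fold higher, and of 0.35 at day 7, with 1 of 15. Among all genes 2.86% were at least 2-fold higher at day 21 and 4.19% at day 7. Fos was at 1948 against 761 CPM at day 21 and at 1463 against 1062 CPM at day 7, and at 7281 and 8305 CPM in muscle progenitor barcodes. The 4 MHC class II genes with enough UMIs at day 21 were all higher, with a median of 2.31, but 5 cells held 84.9% of the Cd74 UMIs of Clca3a1 cells. Interferon response genes had medians of 0.33 and 0.80, with 1 of 12 and 4 of 13 higher. The Notch list had medians of 0.45 and 0.53, with Dll1 the only member at least 2-fold higher, at day 7. Proliferation genes had medians of -0.49 and -0.51, glycolysis and hypoxia genes of -0.08 and -0.23, and angiopoietin and Tie genes of -0.19 and -0.11.

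Markers of other cell types were read as summed levels, and their part in these results was not tested. The 6 fibroblast markers summed to 1618 CPM in Clca3a1 cells and 1768 CPM in Clca3a1-zero cells at day 21 and to 248 against 1648 CPM at day 7, and 5 cells held 60.4% to 97.2% of these UMIs. Mature muscle markers summed to 49.4 against 338 CPM and to 538 against 2792 CPM, with 5 cells holding 21.8% to 96.8%. Macrophage markers summed to 44.3 against 18.6 CPM and to 5.25 against 8.89 CPM, and mural markers to 101 against 159 CPM and to 23.2 against 201 CPM. The median cell of each group had 0 UMIs of the fibroblast, mural and macrophage lists. Tendon markers summed to 50.7 against 14.4 CPM and to 5.34 against 2.78 CPM, and haemoglobin genes to 82.9 against 27.6 CPM at day 21, where 5 cells held 97.9% and 93.7% of the UMIs. No neutrophil or Schwann cell marker reached 50 UMIs. Blood venous markers summed to 431 against 613 CPM and to 658 against 780 CPM, although the median log2 ratio at day 7 was 0.1. Of that list Selp, P-selectin, was at least 2-fold higher on both days, at 26.0 against 9.94 CPM and at 45.2 against 20.6 CPM. Ackr1, the chemokine receptor of venules, was at 1.16 against 6.21 CPM at day 21, under the minimum of UMIs, and at 22.7 against 7.23 CPM at day 7, where 5 Clca3a1 cells held 68.1% of its UMIs, and Vwf, von Willebrand factor, was 3.01-fold lower at day 21. The shared endothelial markers summed to 1327 against 1288 CPM and to 1707 against 1613 CPM. Blood arterial markers summed to 944 against 824 CPM and to 830 against 720 CPM, with median log2 ratios of 0.45 and 0.69. None of the 4 with at least 50 UMIs was at least 2-fold apart on either day. The other members of that list, Gja5 and Sema3g, were at 0 in every gated cell described here. Blood capillary markers summed to 164 against 395 CPM and to 265 against 474 CPM. Of these Aqp1, a water channel, was at 15.2 against 208 CPM at day 21 and at 135 against 324 CPM at day 7. Timp4, a metalloproteinase inhibitor of the same list, went the other way, at 14.99 against 7.70 CPM and at 29.6 against 9.45 CPM.

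The day comparison was limited by the libraries, which were counted against different gene lists. Among Clca3a1 cells, 294 of 10937 genes, or 2.69%, were at least 2-fold higher at day 21 than at day 7, and 401, or 3.67%, at least 2-fold lower. In Clca3a1-zero cells 2.28% were higher and 2.16% lower. The median gene of Clca3a1 cells had a log2 ratio of -0.18, and after TMM scaling, which moved it to -0.02, 348 genes were higher and 274 lower. Of the 294 higher genes 149 moved the same way at least 2-fold in muscle progenitor barcodes and 44 overlapped a gene of 1 list only, and of the 401 lower genes 135 and 34 did. Of the genes named by interval bound, some were of that kind and others rested on a few cells. Hba-a1, an alpha globin, was higher at day 21 with 99.7% of its UMIs there in 5 cells, and Actn3, a sarcomere protein, was lower at day 21 with 84.7% of its day 7 UMIs in 5 cells. Atp6v0c, a subunit of the vacuolar proton pump, stood at 434 CPM at day 21 and 5.25 CPM at day 7, with a log2 ratio of 6.37 in Clca3a1 cells, 6.61 in Clca3a1-zero cells and 6.71 in muscle progenitor barcodes. Genes that were carried by many cells, that differed by less than 2-fold in muscle progenitor barcodes and that had no such overlap numbered 40 higher and 134 lower.

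Of those 40, Sbno2, a transcriptional co-regulator, was at 57.9 CPM at day 21 and 10.9 CPM at day 7, a ratio of 5.29 (4.37 to 6.46), with a ratio of 3.86 in Clca3a1-zero cells. Pdgfa, a platelet-derived growth factor, was at 263 against 116 CPM, a ratio of 2.27 (2.13 to 2.43), and of 1.61 in Clca3a1-zero cells. Klf9, a glucocorticoid-responsive factor, was at 158 against 70.6 CPM, a ratio of 2.23, and Slc38a2, an amino acid transporter, at 587 against 278 CPM, a ratio of 2.11. In Clca3a1-zero cells Klf9 and Slc38a2 had ratios of 1.74 and 1.98, so they were higher at day 21 in both groups of lymphatic cells. The difference between the groups' ratios was not tested. In muscle progenitor barcodes the log2 ratio of day 21 over day 7 was 0.77 for Sbno2, 0.72 for Slc38a2, 0.12 for Klf9 and -0.31 for Pdgfa. The higher level of Sbno2 and Slc38a2 at day 21 was thus not confined to lymphatic cells.

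Lower at day 21 were Serpina3g, a serine protease inhibitor, at 7.50 against 40.3 CPM, 5.38-fold, and Tap1, a peptide transporter of antigen presentation, at 9.55 against 29.5 CPM, 3.09-fold. Tap1 was also lower in Clca3a1-zero cells and in muscle progenitor barcodes, with log2 ratios of -0.99 and -0.96. Pkdcc, a secreted tyrosine kinase, was at 46.2 against 117 CPM, 2.52-fold lower, and differed by a like ratio in Clca3a1-zero cells. Smad7 was at 14.1 against 35.9 CPM, 2.55-fold lower. In Clca3a1-zero cells its ratio was 1.09 (0.641 to 1.9), where 5 cells held 76.2% of its 21 UMIs at day 7. Whether the groups differ in this change was not tested. Pde4d, a cyclic AMP phosphodiesterase, and Stom, stomatin, were 2.83-fold and 2.96-fold lower in Clca3a1 cells. Sox18, a transcription factor that acts upstream of Prox1 in mouse development, was at 159 against 381 CPM, 2.40-fold lower, and at 181 against 375 CPM in Clca3a1-zero cells, 2.07-fold lower. The collagen IV genes Col4a1 and Col4a2 were at 335 against 640.0 CPM and at 186 against 392 CPM, 1.91-fold and 2.10-fold lower.

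The markers of the label changed little between days beside these genes. Cmah was at 173 CPM at day 21 and 275 CPM at day 7 in Clca3a1 cells, 1.59-fold lower, and Lrg1 was 1.23-fold lower. By list, the median log2 ratio of day 21 over day 7 in Clca3a1 cells was -0.30 for valve genes, -0.49 for VEGF genes, -0.48 for pan-lymphatic genes and -0.60 for interferon response genes, and 0.40 for immediate early genes. In Clca3a1-zero cells the same lists had -0.19, -0.28, -0.09, -0.21 and -0.37. Depth differed between the days as well, at a median of 9615 UMIs per Clca3a1 cell at day 21 and 18098 at day 7, so the libraries and the days cannot be told apart.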

How the data were processed

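The deposited values were UMI counts for each gene and barcode, without normalization. Cell Ranger 5.0.1 and the build mm10 are named in the submitters' processing notes. The matrices list 32285 genes, and 27998 in the day 7 Prox1 eGFP library; the 27040 genes present in both lists were used, which kept 99.3% of UMIs at day 21 and 99.8% at day 7. Of these, 894 overlap on the same strand a gene of 1 list only, by GENCODE positions, and can differ in count for that reason. Barcodes under 500 genes or 1000 UMIs, or with 15% or more of mitochondrial counts, were dropped.

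UMIs were summed over cells and divided by the summed total (CPM), with exact Poisson intervals; ratios have exact conditional binomial intervals and shares exact Clopper-Pearson ones, all at 95% and for counting error only. With 1 library per group no test was run. A gene was called by size alone, at least 2-fold with at least 50 UMIs over both groups, leaving out the 8 gating genes. Named genes were the 15 higher and 10 lower with the largest smaller ratio of both days, the 10 higher and 10 lower between days by interval bound, and the 10 most variable, passing over predicted genes, mitochondrial, ribosomal protein, X-inactivation and Y-linked genes and, beyond the rule as written, symbols of the clone type (letters and a number). Genes carried by many cells (5 cells holding under 25% of UMIs, and for days also under 2-fold apart in muscle progenitor barcodes and no overlap) were added after their values were seen. Members and gene lists were chosen with earlier results of these data known. Scrublet called 85 doublets at day 21 and 1 at day 7, so the calls had not worked on day 7 and doublets stayed in; an alternative removed the 326 and 190 cells of highest score, 0.8% per 1000 barcodes. Python 3.11.15, numpy 2.4.6, scipy 1.17.1, pandas 2.3.3, scanpy 1.11.5, R 4.3.3 and edgeR 4.0.16 (TMM factors only) were used, and the code was tested on simulated data. Alternatives were other gates, thinned cells, a stricter cell filter, other UMI minimums, mean CPM per cell and TMM scaling. Results of a few named genes are not reported here.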

Additional observations from a re-analysis of the deposited data

Results flagged for a closer look

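Between days, 3 genes moved in opposite directions in Clca3a1 and Clca3a1-zero cells by at least 2-fold each, and none of these differences was tested. Gdf15, a stress-induced cytokine, had a log2 ratio of day 21 over day 7 of 1.75 in Clca3a1 cells and -1.14 in Clca3a1-zero cells. In Clca3a1 cells it was at 239 CPM at day 21 and 71.1 CPM at day 7, and 5 cells held 19.2% and 36.9% of its UMIs. In Clca3a1-zero cells it was at 63.8 CPM at day 21 and 141 CPM at day 7, and 5 cells held 50.6% and 94.9%. C4b, complement component 4, had log2 ratios of 2.74 and -1.83, with 87.9% to 100% of its UMIs in 5 cells of each group. Cd36, a fatty acid receptor, had log2 ratios of -1.97 and 1.14, and 5 cells held 49.2% to 100% of its UMIs.

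Tcap, a sarcomere protein, had opposite signs on the 2 days, with a log2 ratio of Clca3a1 cells over Clca3a1-zero cells of -3.21 at day 21 and 1.56 at day 7. Of its UMIs in Clca3a1 cells 5 cells held 26.3% at day 21 and 96.5% at day 7. This difference between days was not tested either.

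The Vegfc CRE day 7 library, which no comparison used, held 6 cells past the same gates with at least 2 Clca3a1 UMIs, or 24.0% of its 25 gated cells (9.36 to 45.1, exact Clopper-Pearson). Their median Clca3a1 count was 3 UMIs and their highest 6. The untreated library held none among 690 cells.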

How the results depend on the processing

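No paired analysis was possible because there was 1 library per group, and for the same reason no replicate could be left out. Against 603 Clca3a1 cells at day 7, gates applied to cells thinned to 5000 UMIs gave 400. Against 167 genes higher on both days, thinning gave 83 and a minimum of 200 UMIs 104; against 174 lower, thinning gave 64, a minimum of 10 UMIs 387 and of 200 UMIs 67. Against 294 genes higher at day 21, thinning gave 134, removal of barcodes with 10 UMIs of other cell types 194, and minimums of 10 and 200 UMIs 635 and 155; against 401 lower, thinning gave 266 and these minimums 862 and 154. Fewer cells or UMIs enter under thinning and the higher minimum, by construction.

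Of 142 called gene ratios, 122 kept their direction and at least 2-fold under every alternative run. Of 4 list medians that were at least 2-fold apart, 1 did so. The sign changed for muscle genes and Myoc, whose UMIs sit in a few cells. At day 7 Prox1 of at least 3 UMIs gave log2 ratios of 1.14 for Myl1, 1.07 for Car3, 1.68 for Mylpf, 1.17 for Tnni2 and 0.43 for Pvalb, and thinning 0.34 for Myl1, 0.41 for Mylpf and 1.02 for Tnni2. Without barcodes with 10 UMIs of other types, Mylpf gave 0.51 and Tnni2 0.15 at day 7 and Pvalb 0.27 at day 21; without the 5 cells of most such UMIs, an alternative chosen after seeing the data, Mylpf gave 0.57 and Tnni2 0.13. Myoc at day 7 gave -2.57 with Clca3a1 of at least 3 UMIs, -0.70 thinned, -2.76 with Flt4 required, -2.78 with Prox1 of at least 3 UMIs, -2.79 without the barcodes with 10 UMIs and -2.77 without the 5 cells, and at day 21 -0.48 without the highest Scrublet scores and -0.54 without the barcodes with 10 UMIs. The MHC class II median at day 21 was -1.57 thinned. The cause of these changes was not tested. Depth limits genes near 50 UMIs, and the 125 Clca3a1-zero cells of day 7 set the widest intervals.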
